A study of Mus musculus with 6 samples.

Results

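Subunits of the transcription factor NF-kB, the proteins that hold it back, and 2 of its adhesion targets were followed in subcutaneous mouse melanomas with and without a YKL-40 overexpression label. The 10 genes were taken by name from a table of 20938 genes. They are the subunit genes Nfkb1, Nfkb2, Rela and Relb, the inhibitors and feedback regulators Nfkbia, Nfkbiz, Tnfaip3 and Birc3, and the adhesion genes Icam1 and Vcam1. All 10 were in the table, and all 10 reached the filter used for testing, which asked for an average of 1 FPKM or more.

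Each library came from a whole tumour that B16F10 cells, a melanoma line of C57BL/6 mice, had formed under the skin of the hind leg of male C57BL/6 mice that were 6 weeks old, taken on day 19. There were 3 tumours labelled as overexpressing YKL-40, a secreted chitinase-like protein, and 3 labelled Control, and the labels give the genotype of all of them as WT. The vector, the number of clones and the species of the YKL-40 sequence are not stated in the labels. Values are FPKM, fragments scaled to transcript length and library depth, and every tumour also holds RNA of host cells. Whether each of the 3 libraries in a group is a different mouse is not labelled. The p-values therefore measure only the spread between these samples, which may be technical.

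NF-kB is a family of dimers built from Rel proteins. In resting cells, inhibitors of the IkB family hold the dimers in the cytoplasm. Signals from receptors such as those for TNF and interleukin 1 activate the IKK kinases, which mark the inhibitor for degradation and free the dimer to enter the nucleus. The freed dimers switch on genes for cytokines, adhesion molecules and survival factors. They also switch on genes for their own inhibitors, so the response limits itself. Activation therefore acts largely on protein that is already present, and RNA of the subunits is not a direct measure of it. The split into subunits and targets is not strict, since Nfkb2 is itself known to be induced by NF-kB.

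The libraries were first checked against their labels. The mouse gene of YKL-40 (Chil1 in the table) was at 0, 0 and 0 FPKM in the YKL-40-labelled libraries, against 0.0644, 0 and 0.0242 FPKM in the Control libraries. These values check the label only if the overexpressed sequence was the mouse one, and all directions below rest on the labels. The summed FPKM of 9 melanocyte and melanoma markers lay between 8671 and 10815 in the YKL-40-labelled libraries and between 8670 and 10141 in the Control libraries, with Pmel and Dct the most abundant. All 10 T and NK cell markers had higher groups without overlap, with summed FPKM of 21.8, 7.66 and 28.5 against 0.561, 1.37 and 1.44. Of 10 macrophage markers 6 did not overlap and were higher, with sums of 210.3, 267 and 347 against 63.3, 105 and 167. Of 10 skeletal muscle markers 7 did not overlap and were lower, with sums of 6.82, 25.4 and 3.43 against 70.1, 37.8 and 163. Among all tested genes, 10.3% had higher groups without overlap and 14.2% lower ones, while the marker lists also hold genes below the filter. In such bulk samples, a different number of cells of a type and a different amount of RNA per cell cannot be told apart.

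The windows before the transcription starts of 4 members are shown first, because these genes are known to be induced by NF-kB itself and their windows hold letters of the kind that NF-kB binds. RefSeq promoter windows (build GRCm38.p6, which shares the chromosome coordinates of mm10) were matched by symbol for 6 of the 10 members, in 9 windows since some genes have several starts. In the 250 bases before each start, 3 motifs were searched on both strands: the kappa B consensus, and the 9 bases GGACTTTCC and GGAATTTCC, both of which can lie inside the consensus. The motifs were chosen after the windows had been seen. Among 32817 RefSeq windows of this length, 7.25% held the consensus, 0.283% held GGACTTTCC, 0.286% held GGAATTTCC and 7.51% held any of the 3. A match was found in 6 of the 9 member windows, from 4 members. Capitals mark the matches in these windows, each written 5′ to 3′ on the strand of its gene:
Nfkbia (chr12:55492648-55492897, minus strand): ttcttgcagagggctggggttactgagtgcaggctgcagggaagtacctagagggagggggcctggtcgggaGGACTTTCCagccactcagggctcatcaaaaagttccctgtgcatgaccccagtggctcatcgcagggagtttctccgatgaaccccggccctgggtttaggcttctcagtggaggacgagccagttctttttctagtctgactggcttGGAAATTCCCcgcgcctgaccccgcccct
Tnfaip3 (chr10:19015411-19015660, minus strand): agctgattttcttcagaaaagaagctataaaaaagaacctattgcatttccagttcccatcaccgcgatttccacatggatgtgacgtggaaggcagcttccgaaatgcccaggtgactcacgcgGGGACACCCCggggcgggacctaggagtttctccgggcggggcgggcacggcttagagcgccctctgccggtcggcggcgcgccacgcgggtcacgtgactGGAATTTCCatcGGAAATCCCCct
Icam1 (chr9:21015690-21015939, plus strand): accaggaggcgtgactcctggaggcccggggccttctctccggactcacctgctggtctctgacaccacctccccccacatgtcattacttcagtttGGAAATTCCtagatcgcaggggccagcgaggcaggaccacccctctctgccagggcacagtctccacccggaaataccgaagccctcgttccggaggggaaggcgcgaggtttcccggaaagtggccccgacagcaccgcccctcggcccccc
Nfkb2 (chr19:46304487-46304736, plus strand): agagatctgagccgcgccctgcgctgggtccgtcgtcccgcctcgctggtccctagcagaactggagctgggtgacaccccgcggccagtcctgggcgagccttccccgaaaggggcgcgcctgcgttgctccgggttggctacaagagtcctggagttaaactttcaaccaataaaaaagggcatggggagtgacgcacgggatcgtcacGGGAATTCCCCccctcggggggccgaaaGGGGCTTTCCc

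The Nfkbia window held GGACTTTCC from 178 to 170 bases before the start, and the reverse complement of GGAATTTCC from 29 to 21 bases before it, inside a consensus match. The Tnfaip3 window shown held GGAATTTCC from 24 to 16 bases before the start, beside consensus matches that began 125 and 12 bases before it. The Icam1 window held the reverse complement of GGAATTTCC from 153 to 145 bases before the start and no consensus match. The Nfkb2 window shown held 3 consensus matches, of which those that began 39 and 38 bases before the start overlap. The Rela and Birc3 windows and the window of a second Tnfaip3 start held none of these letters. The windows of the other 2 Nfkb2 starts held a consensus match each, which in 1 of them contains GGACTTTCC. A match is a description of the sequence, and binding was not measured here.

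The subunits had nearly the same RNA level in both groups. Nfkb1 encodes p105, the precursor of the DNA-binding subunit p50 (chromosome 3, 135584655 to 135691969). It had 34.4, 36.4 and 39.7 FPKM in the YKL-40-labelled libraries, against 30.2, 33.6 and 43.3 FPKM in the Control libraries. The Control range enclosed all 3 YKL-40-labelled values. The log2 difference (on the log2(FPKM + 1) scale, YKL-40-labelled minus Control, here and below) was 0.057 with a 95% interval from -0.28 to 0.39, and it ran from -0.053 (without Control library 1) to 0.202 (without Control library 3) when single libraries were left out. It was also moved by over 1.5 times without Control library 2 (0.023) and without YKL-40-labelled library 1 (0.104) or 3 (0.003). Rela encodes p65, the subunit that carries the main activation domain (chromosome 19, 5637442 to 5648134). It had 10.3, 10.3 and 9.43 FPKM in the YKL-40-labelled libraries and 9.32, 9.36 and 9.97 FPKM in the Control libraries. These ranges overlapped, and the log2 difference was 0.058 with an interval from -0.15 to 0.27, and 0.095 without YKL-40-labelled library 3.

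Nfkb2 and Relb act together in the alternative NF-kB pathway, in which the Nfkb2 product p100 is cut to p52 and pairs with RelB. Nfkb2 (chromosome 19, 46300994 to 46312400) had 18.9, 18.4 and 18.3 FPKM in the YKL-40-labelled libraries, against 20.3, 20.4 and 21.3 FPKM in the Control libraries. Relb (chromosome 7, 19606217 to 19629438) had 3.21, 3.04 and 3.01 FPKM in the YKL-40-labelled libraries, against 3.35, 3.98 and 3.37 FPKM in the Control libraries. For both genes all 3 YKL-40-labelled values lay below all 3 Control values, by a small amount: the means stood at 0.897-fold and 0.866-fold of the Control means. Among all tested genes, 14.2% had lower groups that did not overlap. The log2 differences were -0.15 (95% interval -0.34 to 0.04) for Nfkb2 and -0.16 (-0.42 to 0.10) for Relb, with adjusted p of 0.384 and 0.498 in limma's test with Benjamini-Hochberg adjustment over all tested genes. Without Control library 2 the Relb difference was -0.093. Exons of Nfkb2 overlap those of Psd on the opposite strand, and the kit keeps no strand, so reads from the overlap could not be told apart. Psd had 0.446, 0.480 and 0.435 FPKM in the YKL-40-labelled libraries and 0.802, 0.553 and 0.749 FPKM in the Control libraries.

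Within the Rel family the proportions were close between groups. The fifth family member, Rel, encodes c-Rel, which is prominent in lymphoid cells. Nfkb1 held 48.3 ± 1.54% of the summed FPKM of the 5 Rel family genes in the YKL-40-labelled libraries and 46.5 ± 4.05% in the Control libraries (SD, n = 3 each). Nfkb2 held 24.4 ± 1.34% in the YKL-40-labelled libraries and 27.2 ± 1.99% in the Control libraries, while Rela held 13.1 ± 1.14% in the YKL-40-labelled libraries and 12.6 ± 0.788% in the Control libraries. Rel itself had 6.86, 7.13 and 9.24 FPKM in the YKL-40-labelled libraries and 7.06, 6.36 and 7.12 FPKM in the Control libraries. Its share was 10.1 ± 1.27% in the YKL-40-labelled libraries and 9.02 ± 0.912% in the Control libraries. Relb held the smallest share, 4.06 ± 0.290% in the YKL-40-labelled libraries and 4.71 ± 0.719% in the Control libraries, with overlapping values. RNA of the 2 precursor subunits made up most of the family in both groups.

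**Figure D1:**
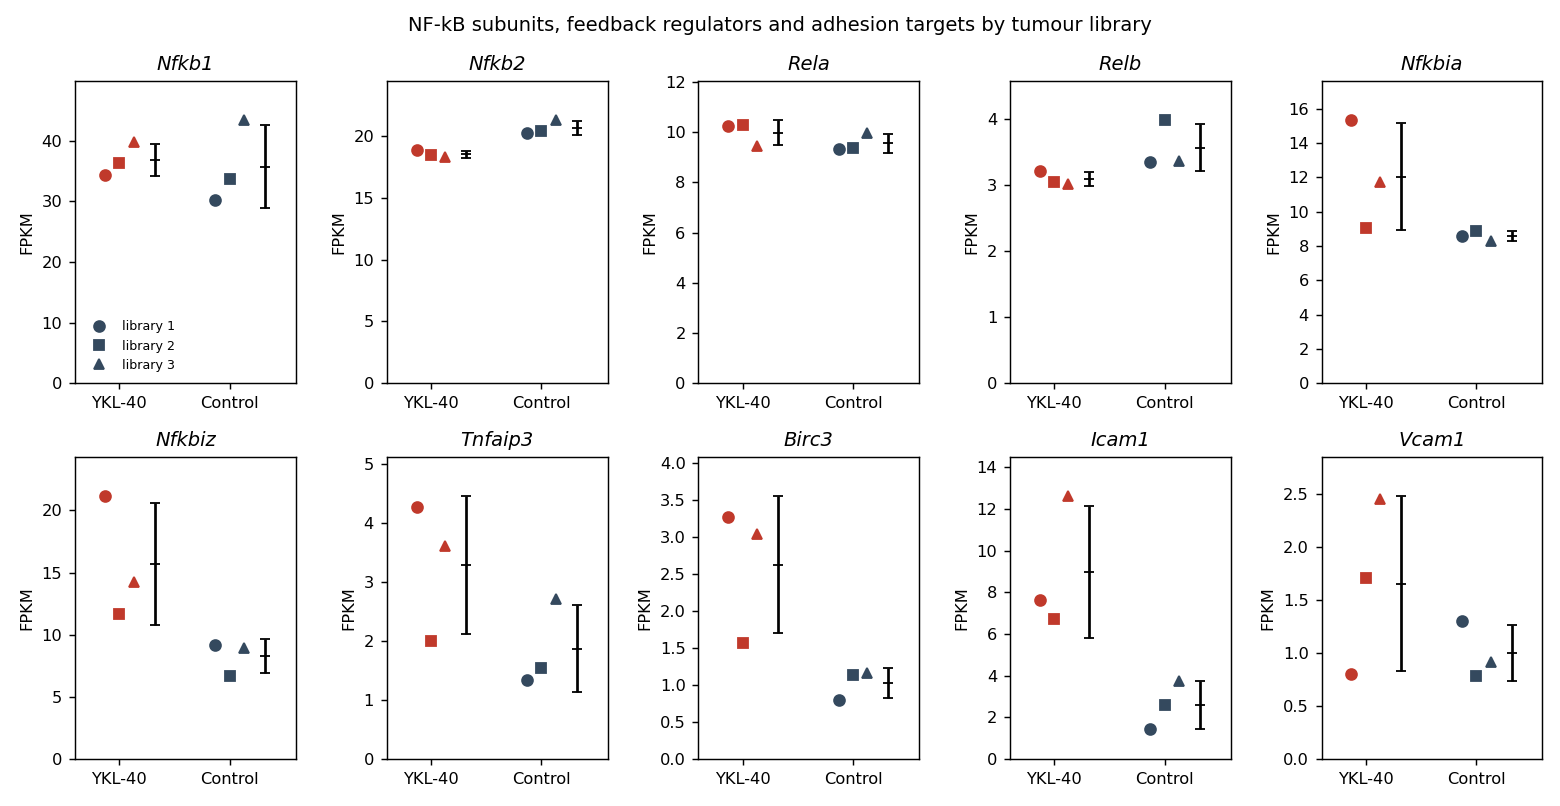
FPKM of the 10 genes (vertical axes from 0) in the 3 YKL-40-labelled libraries (red, left) and the 3 Control libraries (dark, right); symbols mark library 1, 2 and 3 of each group, and the black bar is the mean ± SD. The 4 subunits sit at similar levels in both groups, while Icam1 lies between 6.71 and 12.6 FPKM in the YKL-40-labelled libraries and between 1.45 and 3.74 FPKM in the Control libraries.

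The inhibitors and feedback regulators had higher values in the YKL-40-labelled libraries, but 0 of the 4 passed limma's adjusted threshold over all genes (3 were higher at an unadjusted p under 0.05, as were 8.71% of all tested genes). Nfkbia encodes IkB alpha, the inhibitor that NF-kB itself induces (chromosome 12, 55489409 to 55492647). It had 15.3, 9.07 and 11.7 FPKM in the YKL-40-labelled libraries, against 8.59, 8.88 and 8.28 FPKM in the Control libraries. YKL-40-labelled library 2 stood just above the highest Control library, and the other two were well above it. The log2 difference was 0.42 ± 0.17 (SE), with a limma p of 0.0436 before adjustment and 0.267 after it. It was 0.24 without YKL-40-labelled library 1, and the unadjusted p was above 0.05 when any 1 library other than YKL-40-labelled library 2 was left out (0.0790 to 0.111). Nfkbiz encodes IkB zeta, a nuclear member of the inhibitor family that helps to switch on a subset of late NF-kB targets (chromosome 16, 55811375 to 55838954). It had 21.1, 11.7 and 14.3 FPKM in the YKL-40-labelled libraries, against 9.18, 6.70 and 8.90 FPKM in the Control libraries. The groups did not overlap, with a log2 difference of 0.82 ± 0.22 (SE) and an adjusted p of 0.126 in limma.

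Tnfaip3 encodes A20, a ubiquitin-editing enzyme that shuts down signalling upstream of IKK (chromosome 10, 19000910 to 19015410). It had 4.27, 2.00 and 3.61 FPKM in the YKL-40-labelled libraries, against 1.34, 1.55 and 2.72 FPKM in the Control libraries. Control library 3 lay above YKL-40-labelled library 2, so the groups overlapped, and the log2 difference was 0.57 ± 0.26 (SE; adjusted p = 0.299 in limma). Birc3 encodes cIAP2, a ubiquitin ligase that protects from cell death after TNF (chromosome 9, 7847468 to 7873205). It had 3.27, 1.57 and 3.03 FPKM in the YKL-40-labelled libraries, against 0.792, 1.13 and 1.16 FPKM in the Control libraries. Every YKL-40-labelled library was above every Control library, with a mean 2.55-fold higher and a log2 difference of 0.81 ± 0.22 (SE; adjusted p = 0.131 in limma). Without YKL-40-labelled library 2, the log2 difference was 1.04 and Birc3 passed (adjusted p = 0.0347; over the alternatives in which it was tested its adjusted p ran from 0.0233 to 0.359). Its paralog Birc2, which encodes cIAP1, lies 11634 bases away on chromosome 9 in the GENCODE M21 annotation, and how reads shared by the pair were counted is not stated in the labels. Birc2 had 10.3, 8.80 and 11.1 FPKM in the YKL-40-labelled libraries and 11.1, 8.22 and 8.49 FPKM in the Control libraries, with a log2 difference of 0.11 (adjusted p = 0.705 in limma). Birc2 belongs to the list of adaptors and ligases below and was singled out as the neighbour of Birc3.

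The 2 adhesion genes differed in how clearly they separated the groups. Icam1 encodes the ligand to which leukocyte integrins such as LFA-1 attach (chromosome 9, 21015940 to 21028814). It had 7.62, 6.71 and 12.6 FPKM in the YKL-40-labelled libraries, against 1.45, 2.61 and 3.74 FPKM in the Control libraries. The lowest YKL-40-labelled library was well above the highest Control library, and the mean was 3.45-fold higher. The log2 difference of 1.48 ± 0.29 (SE) had an adjusted p of 0.0833 in limma, short of the threshold of 0.05. Without Control library 3 it was 1.70 and passed (adjusted p = 0.0466; over the alternatives in which it was tested its adjusted p ran from 0.0124 to 0.239). Vcam1 encodes the ligand of the integrin VLA-4 and is best known on activated endothelium (chromosome 3, 116110020 to 116129688). It had 0.800, 1.71 and 2.45 FPKM in the YKL-40-labelled libraries, against 1.30, 0.786 and 0.913 FPKM in the Control libraries. The Control mean was 0.999 FPKM, so Vcam1 reached the filter only through the YKL-40-labelled libraries. YKL-40-labelled library 1 lay below 2 of the Control libraries, and the log2 difference was 0.37 ± 0.25 (SE; adjusted p = 0.473 in limma). Leaving out YKL-40-labelled library 3 gave 0.15, and leaving out library 1 gave 0.62. In GENCODE M21 an antisense gene overlaps exons of Icam1 and another overlaps exons of Vcam1, and unstranded reads from these stretches could not be told apart.

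Marker lists of cell types were set beside the adhesion and feedback genes. The summed FPKM of 10 endothelial markers was 92.2, 116 and 93.6 in the YKL-40-labelled libraries and 63.0, 88.2 and 131 in the Control libraries. Of the 10, 1 was higher without overlap, where 10.3% of all tested genes were. None of the 10 was at 0 in all libraries. Icam1 is also made by leukocytes and by cells exposed to interferon. The dendritic cell list, of which 5 of 7 markers did not overlap and were higher, summed to 17.5, 8.19 and 13.7 FPKM in the YKL-40-labelled libraries against 3.50, 2.64 and 5.77 FPKM in the Control libraries. YKL-40-labelled library 2 had the lowest sum of its group in the dendritic, T and NK cell, fibroblast, B cell and neutrophil lists, and also the lowest value of its group for Nfkbia, Nfkbiz, Tnfaip3, Birc3 and Icam1. In the macrophage, endothelial, muscle and melanocyte lists it was not the lowest. The fibroblast list summed to 345, 237 and 428 FPKM in the YKL-40-labelled libraries against 38.4, 102 and 280 FPKM in the Control libraries, with 3 of 9 markers higher without overlap. The 5 B cell markers summed to at most 1.51 FPKM in the YKL-40-labelled libraries and 1.53 FPKM in the Control libraries. The 5 neutrophil markers summed to 7.83, 2.01 and 2.84 FPKM in the YKL-40-labelled libraries against 1.02, 0.565 and 14.8 FPKM in the Control libraries, and 0 of them separated the groups. Most of the highest sums came from S100a9, at 5.90 FPKM in YKL-40-labelled library 1 and 11.6 FPKM in Control library 3, while Ly6g was at 0 in all 6 libraries. The part that endothelial cells, leukocytes, fibroblasts, muscle or interferon have in the differences of the 10 genes was not tested.

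Counted together, 0 of the 10 genes passed the adjusted threshold of 0.05 in limma, where 0.365% of 11241 tested genes passed as higher and 0.0712% as lower, 0.436% in all. At an unadjusted p under 0.05, 4 of the 10 were higher (Nfkbia, Nfkbiz, Birc3 and Icam1) and 0 were lower, against 8.71% higher and 9.24% lower among all tested genes. The same 4 had higher groups without overlap, where 10.3% of all tested genes did. Median log2 differences were -0.046 for the 4 subunits, 0.69 for the 4 inhibitors and feedback regulators and 0.92 for the 2 adhesion genes, beside -0.041 for all tested genes. The last list median is only the midpoint of Icam1 (1.48) and Vcam1 (0.37). Vcam1 reached the filter only through the YKL-40-labelled libraries, and its groups overlapped. The count of genes passing over all genes was 1 without Control library 3 (Icam1) and 1 without YKL-40-labelled library 2 (Birc3). It was 0 when any 1 of the other libraries was left out. Among all tested genes, 209 passed without Control library 3 and 238 without YKL-40-labelled library 2, against 49 with all libraries.

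**Figure D2:**
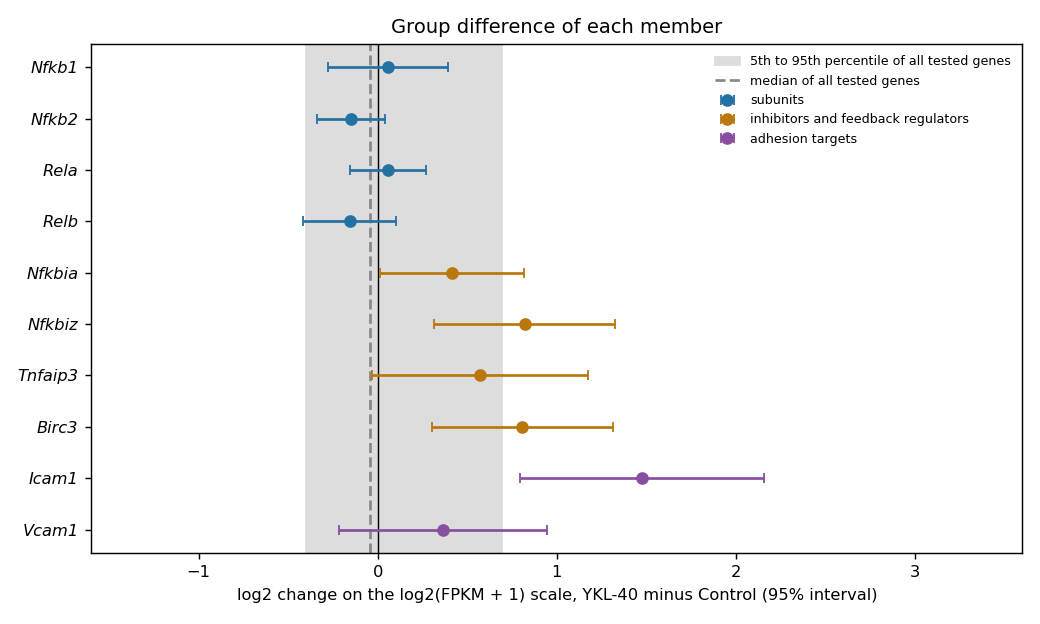
Log2 difference of each gene on the log2(FPKM + 1) scale, YKL-40-labelled minus Control, with limma's 95% interval (bars), over the range from the 5th to the 95th percentile of all tested genes (grey band, -0.40 to 0.69) and their median (dashed, -0.041). The 4 subunits (blue) lie near 0; Nfkbiz, Birc3 and Icam1 have intervals wholly above 0, as has Nfkbia by a narrow margin.

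The targets were next set against a subunit within each library. The FPKM ratios do not depend on the scaling of a library, and the tested log2(FPKM + 1) differences depend on it slightly. Icam1 stood at 0.743, 0.653 and 1.34 times the FPKM of Rela in the YKL-40-labelled libraries, against 0.156, 0.279 and 0.375 times in the Control libraries. This ratio did not overlap between groups, and its log2 difference was 1.42 (exact two-sided permutation p = 0.1, the smallest that 3 against 3 libraries allow; 0.25 after adjustment over the 5 pairs compared). Relb stood at 0.313, 0.296 and 0.319 times Rela in the YKL-40-labelled libraries and at 0.359, 0.425 and 0.338 times in the Control libraries, again without overlap (log2 difference -0.21, and -0.14 without Control library 2; exact permutation p = 0.1, adjusted 0.25). The inhibitor Nfkbia stood at 1.49, 0.883 and 1.24 times Rela in the YKL-40-labelled libraries, against 0.922, 0.949 and 0.830 times in the Control libraries. YKL-40-labelled library 2 fell inside the Control range, and the log2 difference was 0.36 (exact permutation p = 0.3, adjusted 0.375). Leaving out YKL-40-labelled library 1 gave 0.20, and leaving out library 2 gave 0.55. Nfkb2 averaged 0.506 ± 0.0436 times Nfkb1 in the YKL-40-labelled libraries and 0.591 ± 0.0919 times in the Control libraries (SD, n = 3 each; exact permutation p = 0.3, adjusted 0.375). The log2 difference was -0.21, with -0.11 without Control library 1 and -0.33 without Control library 3. Vcam1 averaged 0.168 ± 0.0908 times Rela in the YKL-40-labelled libraries and 0.105 ± 0.0299 times in the Control libraries (SD, n = 3 each; exact permutation p = 0.5, adjusted 0.5). The log2 difference was 0.31, with 0.58 when YKL-40-labelled library 1 was left out and 0.057 when library 3 was. None of the 5 ratios could reach 0.05 in this design.

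**Figure D3:**
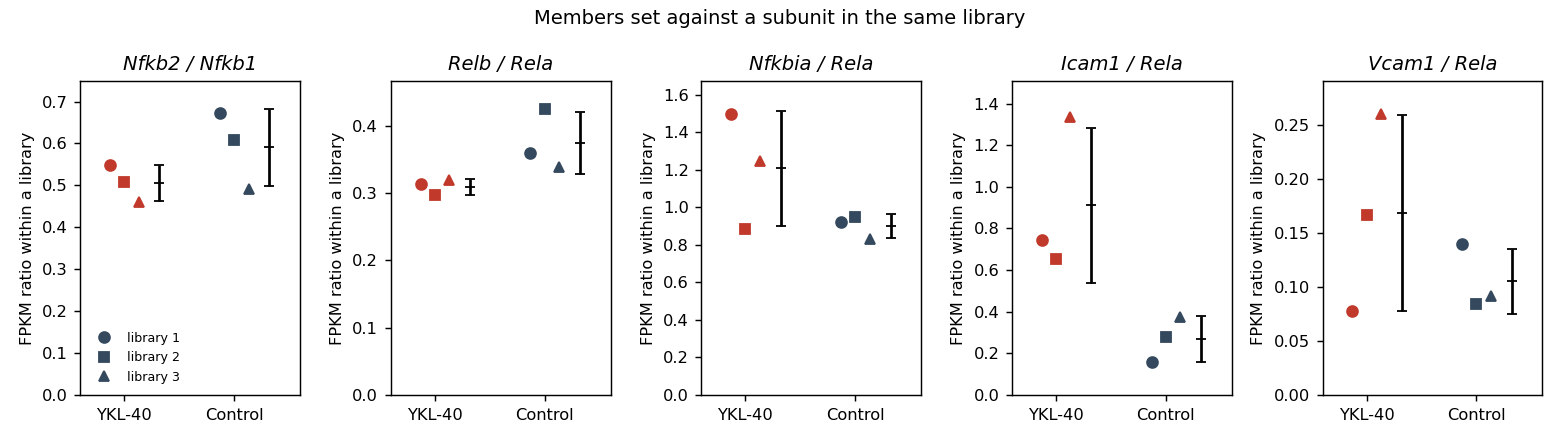
FPKM of 1 gene divided by that of a subunit in the same library (vertical axes from 0), YKL-40-labelled left and Control right; symbols mark library 1, 2 and 3 of each group, and the black bar is the mean ± SD. Icam1 over Rela is separated between the groups, with 0.653 the lowest YKL-40-labelled and 0.375 the highest Control value, while Nfkbia over Rela overlaps.

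The order of the levels differed with the group. In the YKL-40-labelled libraries the order of mean FPKM was Nfkb1, Nfkb2, Nfkbiz, Nfkbia, Rela, Icam1, Tnfaip3, Relb, Birc3 and Vcam1. From Nfkb2 down to Icam1 and from Tnfaip3 down to Vcam1, each neighbour's range overlapped the next. In the Control libraries the order was Nfkb1, Nfkb2, Rela, Nfkbia, Nfkbiz, Relb, Icam1, Tnfaip3, Birc3 and Vcam1. There, the overlapping neighbours were Nfkbia with Nfkbiz, Relb with Icam1, Icam1 with Tnfaip3, and Birc3 with Vcam1. Nfkbiz and Nfkbia thus stood above Rela by mean in the YKL-40-labelled libraries and below it in the Control libraries.

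Profiles over the 6 libraries were compared by the root mean square distance of log2(FPKM + 1) values centred on each gene's mean. A smaller distance is a closer likeness. The values were not scaled to a common spread, so genes that vary little lie close together whatever their direction. Nfkb2 was the nearest of the 10 to Rela (0.108), though their log2 differences were -0.15 and 0.058. Among the 10 genes, Nfkb2 and Relb were each other's nearest, at 0.0740, and Tnfaip3 and Birc3 were each other's nearest, at 0.199. Birc3 was also the nearest of the 10 to Nfkbia (0.238), Nfkbiz (0.236) and Icam1 (0.448). Over all tested genes, the nearest to Icam1 was Arhgef3 (0.0972), followed by Cmah (0.122). Arhgef3 had 6.31, 5.24 and 9.12 FPKM in the YKL-40-labelled libraries and 0.969, 1.84 and 3.38 FPKM in the Control libraries. The nearest to Nfkbiz was Map3k1 (0.102), to Birc3 Rab17 (0.0983), to Tnfaip3 Noct (0.0171), and to Vcam1 Xrn1 (0.130). Of the subunits, Nfkb1 lay nearest to Ung (0.0471), Nfkb2 to Setd6 (0.00828) and Rela to U2af2 (0.0249). These distances were searched over 11241 genes with only 6 libraries and are given as a description.

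The rest of the pathway was described from 85 further genes in 6 lists, all of them in the table and 61 of them tested. Of these, 1 rose and 0 fell over all genes in limma. Before adjustment, 18 were higher and 4 lower at p under 0.05, beside 8.71% higher and 9.24% lower among all tested genes. Ltb, Cd40, Cxcl5, Ptgs2, Ptx3 and Saa3 are among the 18, with Control means from 0.313 to 0.836 FPKM. They reached the filter only through the YKL-40-labelled libraries, where they are high. The count of higher genes is therefore a description only. The remaining Rel and IkB genes had a median log2 difference of 0.11 over 4 tested genes, with 0 at an unadjusted p under 0.05. Bcl3, a nuclear partner of p50 and p52, had the lowest p among them, with 2.67, 1.36 and 2.75 FPKM in the YKL-40-labelled libraries and 0.381, 0.992 and 1.93 FPKM in the Control libraries, which overlap (adjusted p = 0.302). Its log2 difference was 0.67, and 0.40 without Control library 1. Nfkbib, which encodes IkB beta, had a log2 difference of 0.068.

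The kinases and the adaptors had list medians near 0. Over 10 kinase genes the median log2 difference was -0.045, with 1 higher and 1 lower at an unadjusted p under 0.05. These counts are near the shares among all tested genes, 8.71% higher and 9.24% lower. Map3k14, which encodes NIK, the kinase of the alternative pathway, had 3.08, 2.98 and 3.00 FPKM in the YKL-40-labelled libraries and 2.22, 1.74 and 2.42 FPKM in the Control libraries (adjusted p = 0.203 in limma). The groups did not overlap. Map3k7, which encodes TAK1, the kinase that activates IKK, had 31.4, 35.6 and 33.8 FPKM in the YKL-40-labelled libraries and 44.5, 40.2 and 36.8 FPKM in the Control libraries (adjusted p = 0.253). The third kinase of lowest p was Ikbke, an IKK-related kinase, with a log2 difference of 0.15. Over 16 tested adaptors and ubiquitin ligases the median was 0.061. At an unadjusted p under 0.05, 3 were higher and 2 lower, beside the same shares of all tested genes. Irak2, a kinase of the interleukin 1 and Toll-like receptor pathway, had 10.5, 7.997 and 11.9 FPKM in the YKL-40-labelled libraries and 4.29, 6.45 and 6.41 FPKM in the Control libraries (log2 difference 0.73, adjusted p = 0.121). Myd88, the adaptor of the same receptors, had a log2 difference of 0.50 (adjusted p = 0.154), and Rnf31, which encodes the linear ubiquitin ligase HOIP, one of 0.33 (adjusted p = 0.150). Both had higher groups without overlap. With array quality weights Irak2 (adjusted p = 0.0267), Myd88 (0.0266) and Rnf31 (0.0421) passed. That setting passed 1111 of the 11241 tested genes, against 49 in the main fit.

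Deubiquitinases and binding inhibitors had a median log2 difference of 0.041 over 6 tested genes. At an unadjusted p under 0.05, 1 gene was higher and 0 lower, beside 8.71% higher and 9.24% lower among all tested genes. That gene was Usp18, which removes the ubiquitin-like protein ISG15 and is itself interferon-inducible, with 6.34, 5.47 and 7.16 FPKM in the YKL-40-labelled libraries and 2.03, 5.58 and 2.04 FPKM in the Control libraries. Control library 2 lay inside the YKL-40-labelled range. Tnip2, which binds A20, had a log2 difference of 0.24, and Tax1bp1, an A20 adaptor, one of -0.15.

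Among ligands and receptors, 9 of 19 genes were tested, and their median log2 difference was 0.57. At an unadjusted p under 0.05, 4 were higher and 1 lower, beside 8.71% higher and 9.24% lower among all tested genes. Ltb and Cd40, with Control means of 0.313 and 0.519 FPKM, reached the filter only through the YKL-40-labelled libraries. Both are among the 4, so the median and counts are a description only. Ltb, which encodes lymphotoxin beta, a ligand that activates the alternative pathway, had 2.65, 1.13 and 3.00 FPKM in the YKL-40-labelled libraries and 0.389, 0.0980 and 0.452 FPKM in the Control libraries. The groups did not overlap (log2 difference 1.27, adjusted p = 0.0845 in limma), and Ltb passed without YKL-40-labelled library 2 (adjusted p = 0.0191, with a range from 0.0120 to 0.278 over the alternatives in which it was tested). Cd40, a receptor of antigen-presenting cells that signals to NF-kB, had 3.09, 0.883 and 3.41 FPKM in the YKL-40-labelled libraries and 0.229, 0.487 and 0.841 FPKM in the Control libraries. YKL-40-labelled library 2 was only slightly above Control library 3, and Cd40 passed without that YKL-40-labelled library (adjusted p = 0.0287, against 0.163 with it, in limma; 0.0267 to 0.401 over the alternatives in which it was tested). Tnfrsf1b, which encodes TNF receptor 2, had 5.21, 4.17 and 5.11 FPKM in the YKL-40-labelled libraries and 0.920, 1.34 and 3.96 FPKM in the Control libraries, and passed without Control library 3 (adjusted p = 0.0360, against 0.177 with it; 0.0360 to 0.422 over the alternatives in which it was tested). Tnf itself, singled out once its values were known, lay below the filter. It had 0.567, 0.292 and 0.468 FPKM in the YKL-40-labelled libraries and 0.0149, 0.244 and 0.187 FPKM in the Control libraries. The 1 lower receptor was Tlr4, likewise singled out with its values known, with 13.2, 15.9 and 17.4 FPKM in the YKL-40-labelled libraries and 22.6, 25.2 and 18.0 FPKM in the Control libraries (adjusted p = 0.183 in limma).

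The further target genes had the highest median of the lists outside the 10 genes, 0.89 over 16 tested genes. At an unadjusted p under 0.05, 9 were higher and 0 lower, beside 8.71% higher and 9.24% lower among all tested genes. Cxcl5, Selp, Ptgs2, Mmp9, Ptx3 and Saa3, picked with their values known, had Control means from 0.324 to 0.865 FPKM. They reached the filter only through the YKL-40-labelled libraries, and Cxcl5, Ptgs2, Ptx3 and Saa3 are among the 9. The median and count thus rest partly on genes selected through the group where they are high, and are a description only. Irf1, a transcription factor induced by both NF-kB and interferon signalling, was the 1 gene that rose over all genes. It had 40.5, 30.3 and 73.5 FPKM in the YKL-40-labelled libraries, against 9.01, 11.7 and 10.2 FPKM in the Control libraries (log2 difference 2.03, adjusted p = 0.0472 in limma). The call on Irf1 was lost without Control library 1 (adjusted p = 0.171), without Control library 2 (0.139) and without YKL-40-labelled library 1 (0.144), while its log2 difference was 1.94 or more in these fits. Over all alternatives its adjusted p ran from 0.00899 to 0.171. Ptx3, a secreted pattern recognition protein, had 11.5, 3.92 and 14.1 FPKM in the YKL-40-labelled libraries and 0.0962, 0.126 and 1.67 FPKM in the Control libraries (adjusted p = 0.0775), and passed without Control library 3 (0.0430) and without YKL-40-labelled library 2 (0.0216; over all alternatives 0.0115 to 0.228). Ier3, an early response gene, had 67.9, 28.0 and 36.8 FPKM in the YKL-40-labelled libraries and 17.6, 15.0 and 19.5 FPKM in the Control libraries (adjusted p = 0.109), and passed without YKL-40-labelled library 2 (0.0493; over all alternatives 0.0168 to 0.318). For each of these 3 genes the groups did not overlap. Classic inducible targets were not uniformly present: 8 of the 24 target genes lay below the filter, among them Il6, Cxcl1 and Sele, which were picked with their values known. Il6 had 0.164, 0 and 0.108 FPKM in the YKL-40-labelled libraries and 0.00920, 0.00831 and 0.0276 FPKM in the Control libraries. Sod2, an antioxidant enzyme and a target likewise picked with its values known, had 7.03, 6.27 and 7.70 FPKM in the YKL-40-labelled libraries and 7.30, 7.18 and 7.54 FPKM in the Control libraries.

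**Figure D4:**
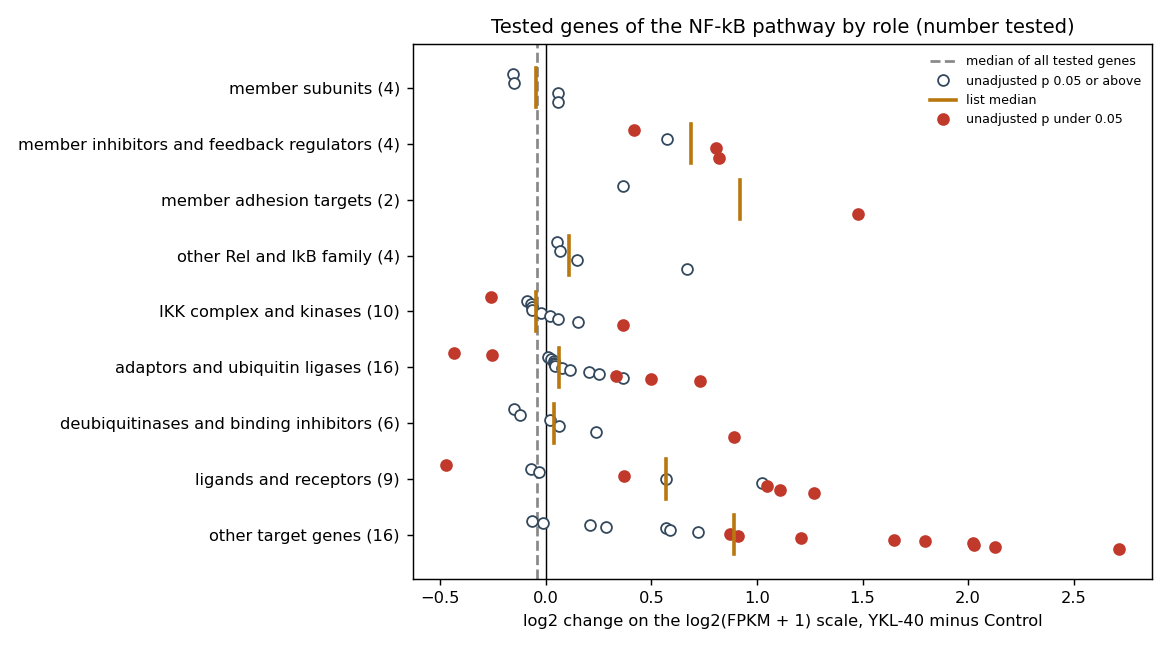
Log2 difference on the log2(FPKM + 1) scale, YKL-40-labelled minus Control, of every tested gene of the pathway by role, with the number tested in brackets; filled red points have an unadjusted p under 0.05 in limma, open points do not, and bars mark list medians. The subunit and kinase medians, -0.046 and -0.045, lie near the dashed median of all tested genes (-0.041). The medians of the feedback regulators (0.69), adhesion targets (0.92), other targets (0.89) and ligands and receptors (0.57) lie to its right. Those of the other Rel and IkB genes (0.11), adaptors (0.061) and deubiquitinases (0.041) lie to its right by less. Some of the adhesion targets, other targets, ligands and receptors reached the filter only through the YKL-40-labelled libraries.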

How the data were processed

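Per the labels' protocols, libraries of 6 tumours were made with the TruSeq RNA kit V2. That kit keeps no strand. The deposited table holds 1 FPKM value per gene and library. Tools listed in the submitters' processing notes, with no role given, are HISAT2, StringTie, bcl2fastq 2.0, DESeq2 and limma, and the build is mm10. No source used here says how transcripts were combined per gene. Total reads are unknown: among 744 genes above 0 and below 0.3 FPKM in all libraries, at most 5 shared 1 ratio to Control library 1 (at 3 decimals), so relative depth was not recovered and no counting interval is given. FPKM sums lay between 468605 and 490955, and 0 pairs of libraries were identical.

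The 11241 genes that averaged 1 FPKM or more were tested as log2(FPKM + 1), which understates changes of low genes, with limma 3.58.1 in R 4.3.3 (variance trend, two-sided, Benjamini-Hochberg over all tested genes). The average was taken over all 6 libraries, so a gene can reach it through 1 group alone. Limma was tested on simulated data. Ratios were tested by exact permutation in SciPy 1.17.1 (Python 3.11.15). The 10 genes, the pathway and marker lists and the tests were chosen with earlier results of these data known. Outside the 10 genes, the 3 tested genes of lowest p in each pathway list and the nearest profiles are named (those of Nfkbia and Relb are not reported here), and any other gene is marked as picked with its values known. Positions are RefSeq's (GRCm38.p6). The alternatives were no filter or one at 5 FPKM, a pseudocount of 0.1 or 0.01, 2 other scalings, no variance trend, array quality weights, the replicate number as a block, and leaving out each library.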

Additional observations from a re-analysis of the deposited data

How the results depend on the processing

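Of 146 log2 differences of the 10 genes under the alternatives, 139 kept their direction and their side of the threshold, 6 newly passed and 1 reversed. The reversal was Nfkb1, at -0.053 without Control library 1 and up to 0.202 over the other omissions. Its cause was not tested. The count of the 10 genes passing over all genes was 0 under the other pseudocounts, filters and scalings and without a variance trend. It was 3 with array quality weights (Nfkbiz, Birc3 and Icam1), and from 0 to 1 when each library was left out. With the replicate number as a block it was 1 (Icam1, adjusted p = 0.0405 in limma). Deviations of same-numbered libraries from their group means had correlations of -0.0832, -0.185 and 0.00170 for numbers 1, 2 and 3. With 3 libraries per group a weak shared effect could be missed, and whether the number marks a pairing is not labelled. Under the block Ltb (adjusted p = 0.0472) and Ptx3 (0.0367) also passed. The number of the 10 genes higher at an unadjusted p under 0.05 ran from 3 to 6 over the alternatives. The number lower was 1 with array quality weights (Relb, -0.23, unadjusted p = 0.0464) and 0 otherwise. The median of the subunits was -0.107 without Control library 1 and ran up to -0.021 over the other omissions. Irf1 did not pass without a variance trend (adjusted p = 0.0537), without a filter (0.119), at a pseudocount of 0.01 (0.0526) or under median of ratios scaling (0.0543). The 49 calls among all tested genes became 1 without a filter, 1111 with array quality weights and 120 with the block, and ran from 0 (without Control library 2) to 238 (without YKL-40-labelled library 2) over the omissions. Genes below a filter have no value under it, and Ltb also had none without YKL-40-labelled library 3. Depth is unknown, and values under 1 FPKM are the least certain.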
